A study of Mus musculus with 20 samples.

Results

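The epidermal growth factor (EGF) family ligands and their ERBB receptors were read in RNAseq of mouse pancreatic islets, as 10 of the 28632 genes in the count table. The members are the ligands *Areg* (amphiregulin), *Ereg* (epiregulin), *Btc* (betacellulin), *Hbegf* (heparin-binding EGF-like growth factor), *Tgfa* (transforming growth factor alpha) and *Egf*, and the receptors *Egfr*, *Erbb2*, *Erbb3* and *Erbb4*. They were taken by name, and the family was chosen by the counts of *Areg*, which is among the most raised genes in β-Mfn1/2DKO islets, so every value of a member in β-Mfn1/2DKO libraries is given as a description without a test. All 10 members had a row in the table, and 8 of them passed edgeR's filter on low counts, as did 15267 of all genes. *Ereg* and *Erbb4* did not pass.

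EGF family ligands are made as membrane-anchored precursors. Proteases at the cell surface release them, and they bind ERBB receptors, which pair up and signal through the RAS-ERK and PI3K-AKT cascades. *Areg*, *Tgfa* and *Egf* bind EGFR, whereas *Btc*, *Hbegf* and *Ereg* bind both EGFR and ERBB4. ERBB2 has no known ligand of its own and acts as a partner, and ERBB3 binds neuregulins and has little kinase activity. In the pancreas, EGFR signalling is known for its part in islet development and in the growth of the β-cell mass, and in acinar and duct cells.

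Islets of 12-week-old mice on a C57BL/6N background were isolated with collagenase, cultured for 24 h and sequenced whole. The 6 Ctrl libraries are labelled wild type, and per the study's methods they may carry either *Ins1*-Cre without floxed alleles or floxed alleles without Cre. The 4 β-Mfn1KO, 5 β-Mfn2KO and 5 β-Mfn1/2DKO libraries come from mice in which *Ins1*-Cre, a recombinase driven from an insulin gene in β-cells, deletes an exon of floxed *Mfn1*, of floxed *Mfn2* or of both. *Mfn1* and *Mfn2* encode the mitofusins, which fuse the outer membranes of mitochondria. Ctrl held 3 females and 3 males, β-Mfn1KO 3 and 1, β-Mfn2KO 2 and 3, and β-Mfn1/2DKO 2 and 3.

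The targeted genes followed the labels. The mean normalized count of *Mfn1* was 1670 in Ctrl, 674 in β-Mfn1KO, 1721 in β-Mfn2KO and 797 in β-Mfn1/2DKO islets, and that of *Mfn2* was 3505, 4352, 1577 and 2084. Depth ran from 12.4 to 20.3 M counts in Ctrl, 15.7 to 16.7 in β-Mfn1KO, 15.1 to 59.5 in β-Mfn2KO and 65.5 to 122.9 in β-Mfn1/2DKO libraries, so depth and the loss of both genes cannot be told apart. Islets hold other cells than β-cells, and fewer cells of a type and less RNA per cell cannot be told apart in bulk RNA. Of the marker lists, counting a gene as called where its fold exceeded 1.5 with an adjusted p below 0.05, 7 of 8 β-cell genes were lower in β-Mfn1/2DKO than in Ctrl islets, and 9 of 10 acinar, 5 of 8 endothelial, 2 of 7 duct, 1 of 8 mesenchymal and 1 of 6 Schwann cell genes were higher. No gene passed in the alpha, delta, PP, macrophage and lymphoid lists with edgeR or DESeq2, while 3 of 5, 1 of 2, 0 of 1, 1 of 8 and 2 of 7 of their genes had an unadjusted p under 0.05 in edgeR. Of all genes 5.21% were called between β-Mfn1/2DKO and Ctrl islets, and 3.24% were called higher. The share of all genes under the unadjusted p is not given for this comparison, so nothing is read from those counts. Replicates 4 and 5 of β-Mfn1/2DKO stood apart with acinar scores (the mean log2 CPM, counts scaled to a common library total, over the acinar list) of 9.35 and 10.7, against 4.08 to 4.90 in the other 3 and 3.60 to 6.23 in Ctrl. Results that rest on these 2 β-Mfn1/2DKO libraries are given with and without them. The acinar score was also high in β-Mfn2KO replicate 4 (8.16, against 4.29 to 5.96 in the rest of its group). That library stayed in the fits without those 2. Ctrl replicate 6 and β-Mfn2KO replicate 5 had the highest macrophage scores (4.81 and 5.07) and mesenchymal scores (3.02 and 3.46) of all libraries.

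*Areg*, *Ereg* and *Btc* are neighbours on chromosome 5. On GRCm38 *Ereg* lies at chr5:91074622-91093646 on the plus strand, *Areg* at chr5:91139599-91148432 on the plus strand and *Btc* at chr5:91357261-91402994 on the minus strand. The promoter of *Areg* is shown because *Areg* is the member with the largest difference between groups. The 250 bases before a start were taken from RefSeq (GRCm38.p6) for 7 of the 10 members, and those of *Ereg*, *Hbegf* and *Erbb3* were not searched. The stretch of *Areg*, at chr5:91139349-91139598 on the plus strand, is written 5′ to 3′ with matches to TGACG or its reverse complement CGTCA in capitals, of which 2 overlap in the palindrome TGACGTCA, known as the cAMP response element.
Areg: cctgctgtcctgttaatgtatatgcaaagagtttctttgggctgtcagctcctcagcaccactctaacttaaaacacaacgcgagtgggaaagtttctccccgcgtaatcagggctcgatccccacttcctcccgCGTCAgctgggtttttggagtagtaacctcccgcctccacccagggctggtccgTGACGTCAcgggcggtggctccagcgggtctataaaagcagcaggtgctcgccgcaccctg

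The palindrome stood 61 to 54 bases before the *Areg* start, and no other of the 7 members held it. It was present in 508 of 32851 promoters of this length (1.55%). The shorter TGACG, read on both strands, was present in 17.8% of all promoters, in that of *Areg* 3 times (2 of them within the palindrome) and in those of *Btc* and *Erbb2* 1 time each. Those windows are at chr5:91403091-91403119 on the minus strand for *Btc* and chr11:98412301-98412329 on the plus strand for *Erbb2*, with the match in capitals.
Btc: aaagaaatgaacCGTCAggtgagacccag
Erbb2: aagcaagcgaggCGTCAgggcacagggcg

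Of 6 motifs searched on both strands, TGATGCAA (0.791% of all promoters), TGACTCA (4.46%) and CACGTG (6.02%) had no match in these stretches of the 7 members, and GGAATG (12.6%) had 1 match, in *Erbb2*. A match is a description of the letters in this window only.

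Levels were compared between genes as CPM scaled by TMM (edgeR's normalization across libraries) and divided by the exon length in kb. In Ctrl islets (n = 6, mean ± SD) *Egfr* stood highest at 1.89 ± 0.0953, followed by *Egf* at 1.76 ± 0.366, *Erbb3* at 1.46 ± 0.291, *Hbegf* at 1.40 ± 0.284, *Tgfa* at 1.20 ± 0.164 and *Areg* at 0.877 ± 0.334. The level was 0.217 ± 0.0905 for *Erbb2*, 0.178 ± 0.0623 for *Btc*, 0.0257 ± 0.0209 for *Ereg* and 0.00194 ± 0.003 for *Erbb4*. From *Egfr* down to *Btc*, each gene's range over the Ctrl libraries overlapped that of the next. Within libraries the order of these neighbours was mixed, except that *Areg* stood above *Erbb2* in each Ctrl library. *Ereg* lay below *Btc* and *Erbb4* below *Ereg* without overlap. In β-Mfn1/2DKO islets (n = 5) *Areg* stood at 56.5 ± 4.23 per kb, far above *Erbb3* at 2.19 ± 1.03 and *Egf* at 2.17 ± 0.121.

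*Areg* encodes an EGFR ligand with a heparin-binding domain. Its normalized count (counts scaled by TMM to the mean effective library of 41.4 M counts) ran from 14.6 through a median of 46.1 to 65.6 in Ctrl libraries. It was 39.1, 21.997, 49.7 and 66.5 in β-Mfn1KO replicates 1 to 4, and 56.4, 82.6, 2121, 141 and 177 in β-Mfn2KO replicates 1 to 5. In the β-Mfn1/2DKO libraries it was 2882, 2588, 2698, 3139 and 2920. All 5 β-Mfn1/2DKO libraries lay above all 15 others, and β-Mfn2KO replicate 3 stood between them and the rest of its own group.

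The difference of *Areg* between β-Mfn1/2DKO and Ctrl islets was 5.98 ± 0.74 (log2 fold change ± SE), a fold of 63.1, which ranked 19th from the top of all 28632 genes. This is the contrast that led to the choice of *Areg*. The value was 5.94 without β-Mfn1/2DKO replicates 4 and 5, 6.02 with all libraries drawn down to the smallest total, and 5.80 to 6.17 when each library in turn was left out. Fold changes of all genes carry a common shift that depends on the scaling. The median over the genes that passed the filter was 0.04 with TMM and 0.17 with scaling by total counts, with which *Areg* stood at 6.12.

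**Figure D1:**
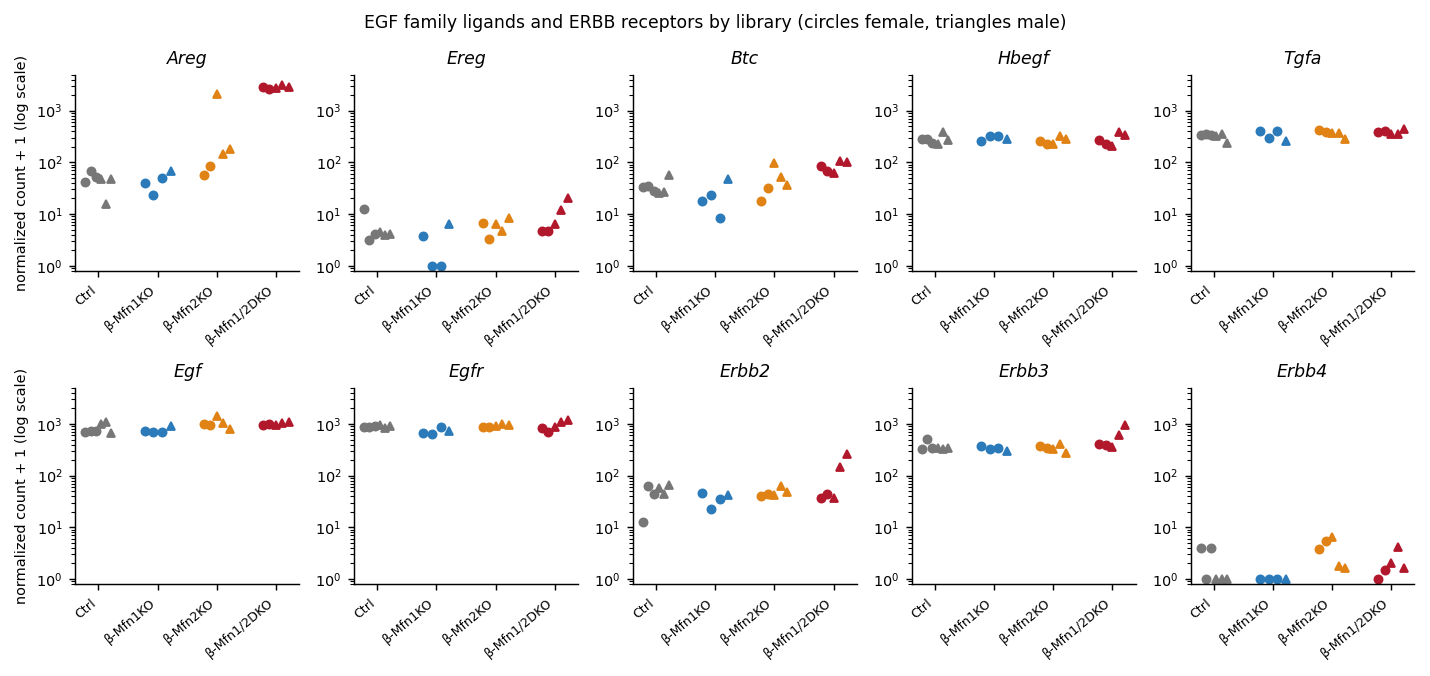
Normalized count plus 1 (log axis) of the 10 members in each of the 20 libraries, with circles for females and triangles for males and the replicates of a group side by side. *Areg* lies between 2588 and 3139 in β-Mfn1/2DKO libraries and at 2121 in β-Mfn2KO replicate 3, and at or below 177 in all others, while *Hbegf*, *Tgfa*, *Egf* and *Egfr* form nearly level rows.

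In β-Mfn1KO islets *Areg* differed from Ctrl by -0.02 ± 1.15 (log2, adjusted p = 1, edgeR). In β-Mfn2KO islets the difference was 3.43 ± 0.77 (adjusted p = 0.292 over all genes, edgeR), so the test was not passed. DESeq2 gave no adjusted p for *Areg* here. The estimate rests on replicate 3. Without that library it was 1.47 with an adjusted p of 0.0562, and the adjusted p ran from 0.0562 to 0.831 over all alternatives tried. In 4 of 5 β-Mfn2KO libraries *Areg* was above the highest Ctrl library, and replicate 1, at 56.4, was within the Ctrl range.

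β-Mfn2KO replicate 3 carried the count of *Mfn2* of its group (1688) with *Mfn1* at 1683, and its depth was 15.1 M counts. Among 12257 genes whose mean normalized count reached 100, leaving out genes of the Y chromosome, *Areg* was the gene that stood farthest above the median of the other 4 β-Mfn2KO libraries (4.28, log2). *Vmn2r3*, a vomeronasal receptor gene named by this rank and thus after its values were seen, came next with 202 in replicate 3, 22.3 to 26.4 in the other 4 and 805 to 2010 in β-Mfn1/2DKO libraries. These were the 2 genes over 8-fold above the median of the other 4, against 1 to 41 genes for each of those libraries against the rest of the group.

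β-Mfn1/2DKO and β-Mfn2KO islets differed in *Areg* by 2.55 ± 0.60 (log2 fold change ± SE). Without β-Mfn2KO replicate 3 the difference was 4.53, and among libraries above 40 M counts it was 4.21. The β-Mfn2KO libraries of that depth are replicate 4, with the acinar score of 8.16, and replicate 5, with the mesenchymal score of 3.46. The ranges of *Areg* in β-Mfn1/2DKO and β-Mfn2KO libraries did not overlap.

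*Btc* encodes betacellulin, first found in a β-cell tumour line. Its normalized count ran from 24.6 through 29.7 to 56.0 in Ctrl libraries, and was 16.7, 21.997, 7.45 and 47.1 in β-Mfn1KO and 16.9, 31.3, 94.2, 50.8 and 35.7 in β-Mfn2KO libraries. In β-Mfn1/2DKO libraries it was 82.1, 68.2, 62.4, 104 and 103, all above the highest Ctrl library. β-Mfn2KO replicate 3 was the highest library of its group for *Btc* as it was for *Areg*. The difference between β-Mfn1/2DKO and Ctrl islets was 1.33 ± 0.36 (log2), a fold of 2.51, and it was 1.11 without replicates 4 and 5 and 0.90 as the ratio of group means of the authors' depth-normalized signal. Against β-Mfn2KO islets it was 0.88 ± 0.36, with overlapping ranges. *Btc* differed from Ctrl by -0.53 ± 0.45 in β-Mfn1KO islets (adjusted p = 0.769) and by 0.44 ± 0.38 in β-Mfn2KO islets (adjusted p = 0.932), which was 0.08 without replicate 3.

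*Tgfa* was the third member whose β-Mfn1/2DKO libraries all lay above Ctrl. TGFα binds EGFR alone. The normalized count was 233 to 350 in Ctrl with a median of 339, and 389.6, 395, 360.2, 357 and 435 in β-Mfn1/2DKO libraries. The gap between the groups was narrow, and the difference was 0.26 ± 0.12 (log2), or 0.08 in the authors' depth-normalized signal. β-Mfn2KO libraries, at 287 to 418, and β-Mfn1KO libraries, at 261 to 410.3, overlapped both.

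*Egf* and *Hbegf* moved little between groups. *Egf* had 682 to 1075 normalized counts in Ctrl with a median of 732, and 969, 985, 964, 1066 and 1083 in β-Mfn1/2DKO libraries, with overlapping ranges and a difference of 0.30 ± 0.13 (log2). The difference in β-Mfn2KO islets was 0.34 ± 0.13 (adjusted p = 0.925, edgeR), where *Egf* stood at 993, 967, 1416, 1027 and 808. *Hbegf* had 221 to 385 in Ctrl and 204 to 385 in β-Mfn1/2DKO libraries, and differed by 0.01 ± 0.16. Its β-Mfn1KO libraries, at 259.6 to 322, and β-Mfn2KO libraries, at 226 to 317, lay within the Ctrl range. *Ereg* was at or near the limit of detection, at 2.12 to 11.6 normalized counts in Ctrl, 0 to 5.54 in β-Mfn1KO, 2.23 to 7.26 in β-Mfn2KO and 3.69, 3.69, 5.29, 10.97 and 19.3 in β-Mfn1/2DKO libraries. With so few counts the difference between β-Mfn1/2DKO and Ctrl islets, 0.93 ± 0.61 (log2), was poorly determined.

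**Figure D2:**
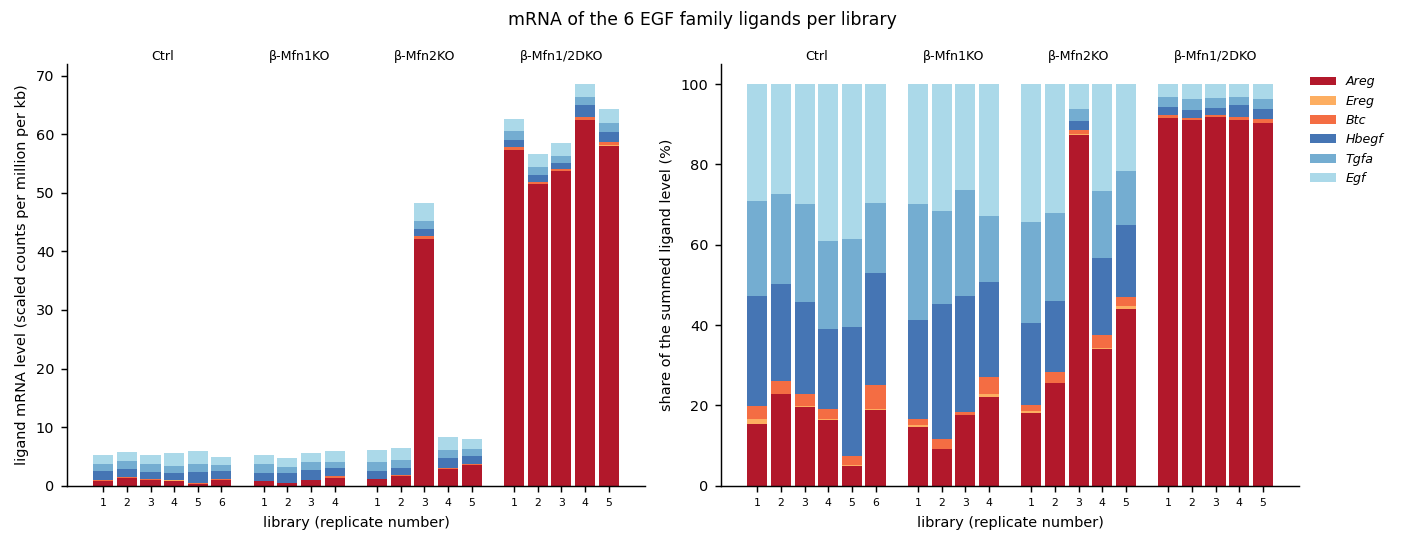
Stacked mRNA levels of the 6 ligands in each library, as scaled CPM per kb of exon (left) and as shares of their sum in percent (right), with colours for ligands. *Areg* fills 90.3 to 91.8% of the β-Mfn1/2DKO bars and 87.4% of the bar of β-Mfn2KO replicate 3, against 4.85 to 22.7% in Ctrl.

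Summed over the 6 ligands, the level per kb was 5.44 ± 0.376 in Ctrl (n = 6), 5.40 ± 0.493 in β-Mfn1KO (n = 4) and 62.1 ± 4.77 in β-Mfn1/2DKO islets (n = 5). In β-Mfn2KO libraries the sum was 6.19, 6.44, 48.2, 8.26 and 7.97. *Areg* made up 16.3 ± 6.17% of the sum in Ctrl, 16.0 ± 5.49% in β-Mfn1KO and 91.1 ± 0.591% in β-Mfn1/2DKO islets. Its share was 18.1, 25.5, 87.4, 34.0 and 44.1% in β-Mfn2KO replicates 1 to 5. *Egf* held the largest mean share in Ctrl, 32.2 ± 5.13%, and 3.51 ± 0.179% in β-Mfn1/2DKO islets, where its own level was not lower. A level of mRNA says nothing of the amount of ligand released.

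Among the receptors, *Egfr*, the receptor that these ligands share, had 822 to 940.1 normalized counts in Ctrl with a median of 895, and 844, 704, 864, 1085 and 1176 in β-Mfn1/2DKO libraries. The 3 libraries of ordinary acinar score lay at or below the Ctrl median, and the 2 others above every Ctrl library. The difference from Ctrl was 0.07 ± 0.10 with all 5 and -0.12 without replicates 4 and 5. In β-Mfn1KO islets *Egfr* stood at 673, 643, 862 and 735 and differed by -0.28 ± 0.11 (adjusted p = 0.624, edgeR). In β-Mfn2KO islets the difference was 0.07 ± 0.10 (adjusted p = 0.973).

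*Erbb2* and *Erbb3*, the partner receptors, were high in the same 2 libraries. *Erbb2* had 11.6 to 65.4 normalized counts in Ctrl with a median of 49.9, and 35.7, 43.3, 36.7, 146 and 256 in β-Mfn1/2DKO libraries. The difference was 1.13 ± 0.45 (log2) with all 5 libraries, -0.26 without replicates 4 and 5, and 0.13 with the acinar score as a covariate. *Erbb3* had 326 to 512 in Ctrl with a median of 337, and 411, 383, 351, 623 and 961 in β-Mfn1/2DKO libraries, a difference of 0.57 ± 0.20 with all 5 and 0.08 without the same 2. In β-Mfn1KO and β-Mfn2KO islets the differences from Ctrl were -0.39 ± 0.55 and 0.01 ± 0.48 for *Erbb2* and -0.14 ± 0.23 and -0.08 ± 0.21 for *Erbb3*, none past the test. Acinar and duct scores were highest in these libraries (duct 4.61 and 4.72, against 3.13 to 3.38 in the other 3 and 2.67 to 3.70 in Ctrl). *Ereg* and *Hbegf* were also highest there within the group, and without both libraries their differences from Ctrl were -0.012 and -0.25. The counts of *Erbb2* are uncertain, since exons of *Mien1* on the opposite strand overlap it with a mean of 3237 raw counts against 72.5, and whether reads were counted by strand is not given in the sources used here.

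**Figure D3:**
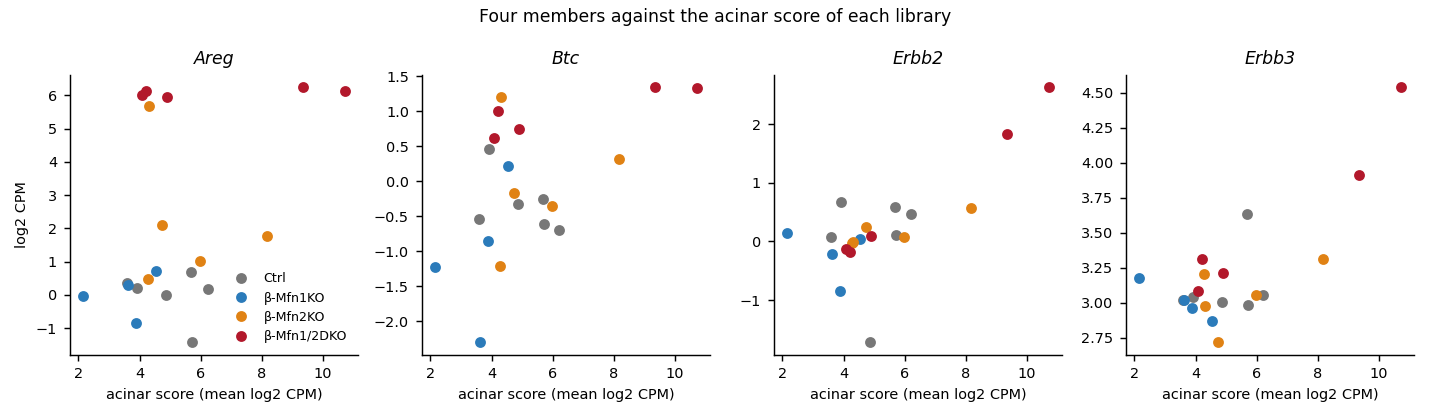
Log2 CPM of *Areg*, *Btc*, *Erbb2* and *Erbb3* against the acinar score (mean log2 CPM of 10 acinar genes), with 1 point per library coloured by group. *Erbb2* and *Erbb3* are highest in the β-Mfn1/2DKO libraries with acinar scores of 9.35 and 10.7, whereas *Areg* is as high in the 3 with scores of 4.08 to 4.90.

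Over the 20 libraries the Pearson correlation with the duct score was 0.81 for *Erbb2* and 0.80 for *Erbb3*, and with the acinar score 0.74 and 0.77. Over the 18 libraries without β-Mfn1/2DKO replicates 4 and 5 these were 0.47 and 0.38, and 0.27 and 0.25. For *Areg* the correlation with the acinar score was 0.39 over 20 and -0.03 over 18 libraries. It was stronger with the β-cell score (-0.86 and -0.83) and the endothelial score (0.74 and 0.63). With the Schwann cell and duct scores it was 0.60 and 0.64, and 0.57 and 0.30. With the mesenchymal and delta scores it was 0.50 and 0.45, and -0.50 and -0.46. These points share genotype and depth. Over deviations from the group means of the 20 libraries, the β-cell, endothelial, Schwann cell and duct values were -0.35, -0.06, 0.42 and 0.13. The mesenchymal and delta values were 0.42 and -0.33. β-Mfn1/2DKO libraries had endothelial scores of 4.40 to 5.04, overlapping 3.88 to 4.48 in Ctrl at the low end, and the part of endothelial cells in the values of *Areg* and *Btc* was not tested.

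*Erbb4* was close to absent, with 0 to 3.04 normalized counts in Ctrl, 0 in all 4 β-Mfn1KO libraries, 0.66 to 5.38 in β-Mfn2KO and 0 to 3.14 in β-Mfn1/2DKO libraries. No fold is given for it.

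Counted over the family, 3 members (*Areg*, *Btc* and *Tgfa*) were higher in β-Mfn1/2DKO than in Ctrl libraries without overlap of ranges, as were 6.56% of all genes. Nothing is read from this count, since the contrast chose the family. Against β-Mfn2KO libraries 1 member (*Areg*) was higher without overlap (6.56% of all genes). *Erbb3* differed there by 0.65 ± 0.21 (log2) with overlapping ranges, by 0.16 without the 2 acinar-rich libraries and by 0.35 without replicate 5 alone.

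In the comparisons that the choice did not use, 0 of 10 members passed in β-Mfn1KO islets (0.0244% of all genes called), with 1 (*Egfr*) at an unadjusted p under 0.05 (7.44% of all genes). In β-Mfn2KO islets 0 of 10 passed (0.0524% of all genes called), with 2 (*Areg* and *Egf*) at an unadjusted p under 0.05 (4.22% of all genes). DESeq2 called 0 members in either. For *Areg* in β-Mfn2KO islets it gave no adjusted p, which counted as not called, so nothing is read from that result. The intervals leave room for change in some members. The spread of each gene was estimated over all 20 libraries, which for *Areg* include β-Mfn2KO replicate 3 at 2121 normalized counts. The 95% interval of the difference in β-Mfn1KO islets was -2.26 to 2.23 for *Areg* and -1.41 to 0.35 for *Btc*, but -0.26 to 0.42 for *Hbegf*, -0.18 to 0.35 for *Tgfa* and -0.39 to 0.16 for *Egf* (log2).

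**Figure D4:**
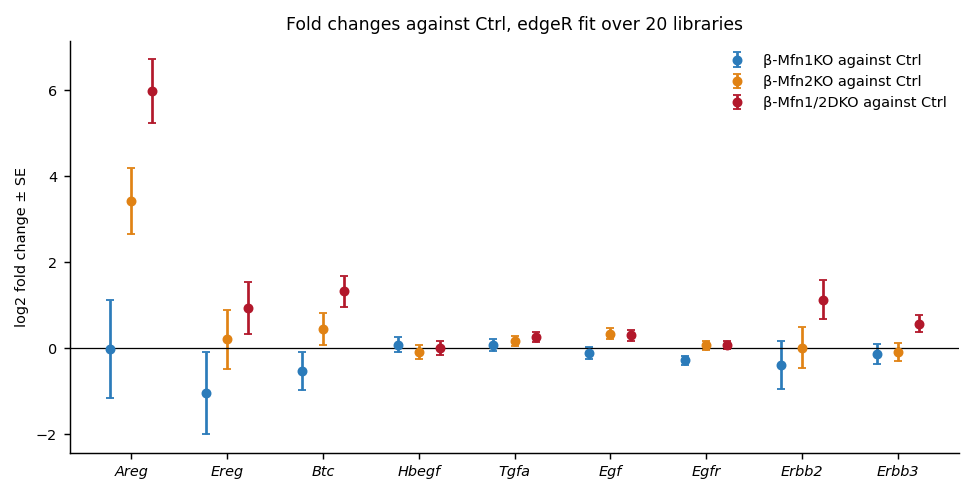
Log2 fold change against Ctrl (± SE) of 9 members in β-Mfn1KO, β-Mfn2KO and β-Mfn1/2DKO islets, from 1 edgeR fit over 20 libraries. *Areg* stands at 5.98 in β-Mfn1/2DKO and 3.43 in β-Mfn2KO islets, and *Erbb4*, which is near 0 counts, is left out.

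Between the sexes, in a fit with genotype and sex as terms, 0 of 10 members passed (0.0559% of all genes called) in edgeR and in DESeq2. An unadjusted p under 0.05 was seen for 5 (and for 10.6% of all genes), with *Btc* (0.65 ± 0.25), *Egf* (0.22 ± 0.09), *Egfr* (0.16 ± 0.07) and *Erbb2* (0.85 ± 0.34) higher and *Tgfa* (-0.19 ± 0.09) lower in males on the log2 scale, with adjusted p from 0.342 to 0.451. *Areg* differed by 0.87 ± 0.53 (adjusted p = 0.586), and by 0.30 without β-Mfn2KO replicate 3. Both β-Mfn1/2DKO libraries with high acinar scores are from males.

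On chromosome 5, genes within 500 kb of *Areg* were read to see whether neighbours differed too. Between *Areg* and *Btc* lies the lincRNA gene *Gm19619* (chr5:91257571-91283421, minus strand), which was named after its values were seen. It had 0 to 12.5 normalized counts in Ctrl, 48.5 in β-Mfn2KO replicate 3 and 52.6 to 68.5 in β-Mfn1/2DKO libraries. Against Ctrl it rose in β-Mfn1/2DKO islets by 3.59 ± 0.62 (log2, adjusted p = 0.000255, edgeR). Its counts in the rest of the β-Mfn2KO and in the β-Mfn1KO libraries are not given, so nothing is read from replicate 3 alone. The nearest genes measured on either side of the 3 ligand genes and *Epgn* did not pass the test, with *Mthfd2l* at -0.12 ± 0.10 (adjusted p = 0.52) on the *Ereg* side and *Parm1* at 0.14 ± 0.16 (adjusted p = 0.635) beyond *Btc*. Farther on the *Ereg* side *Rassf6* differed by 0.28 ± 0.09 (adjusted p = 0.0473, fold under 1.5). *Ppbp*, a platelet chemokine gene that did not pass the filter on low counts, was named after its values were seen. It met the rule for a call as lower in β-Mfn1/2DKO islets (-5.25 ± 1.72, log2, adjusted p = 0.0419, edgeR). Its high value was in 1 Ctrl library, at 84.1 normalized counts, against at most 3.51 in the other 5 and at most 0.784 in β-Mfn1/2DKO libraries. *Epgn*, the ligand gene next to *Ereg*, had 0 counts in every Ctrl library and at most 0.62 normalized counts in β-Mfn1/2DKO libraries.

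The genes whose pattern was most like that of *Areg* were sought among 12261 genes by the Pearson correlation of log2 CPM over 20 libraries, as a description. They were *Trim66* (0.97), *Arhgap12* (0.97), *Aplp2* (0.96), *Tbc1d31* (0.96), *App* (0.95) and *Ppp3ca* (0.95). Over deviations from the group means, which leave out the differences between genotypes, they were *Trim66* (0.88), *Gm44250* (0.84), *Peli2* (0.80), *Col14a1* (0.79), *Tbc1d31* (0.78) and *6330403K07Rik* (0.78). *Areg* in β-Mfn2KO replicate 3 lies far from the mean of its group, and this enters the second measure. *Trim66* had 323 to 467 normalized counts in Ctrl, 1567 in β-Mfn2KO replicate 3, 378 to 495 in the other 4 and 1447 to 1773 in β-Mfn1/2DKO libraries. *Tbc1d31* had 821 to 1133 in Ctrl, 2067 in that replicate, 849 to 1206 in the other 4 and 1967 to 2205 in β-Mfn1/2DKO libraries. Within the family *Btc* came closest to *Areg*, at 0.80 over all libraries and 0.60 over the deviations.

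The pathway around the receptors was read in a list of 71 other genes, of which 67 passed the filter on low counts. In β-Mfn1/2DKO islets 10 of the 71 rose against Ctrl and 0 fell. That is 14.1% called, against 5.21% of all genes and 8.17% of those that passed the filter, or 3.24% of all genes in this direction. The 10 became 4 without the 2 acinar-rich libraries, where the calls among all genes went from 1491 to 956. They became 4 with the acinar score as a covariate, and 5 without replicate 5 alone, where 1161 of all genes were called. At an adjusted p under 0.05 whatever the fold, 17 were higher and 7 lower. The share of all genes at that threshold is not given, so nothing is read from the 17 and 7. The median log2 fold change of the list was 0.04 against 0.06 for all genes. With edgeR 0 of 71 passed in β-Mfn1KO islets and 0 in β-Mfn2KO islets (0.0244% and 0.0524% of all genes called), and DESeq2 called 0 in each. An unadjusted p under 0.05 was seen for 8 and 3 of the 71, and for 7.44% and 4.22% of all genes. Against β-Mfn2KO islets 2 rose (*Rhbdf1* and *Myc*) and 0 fell (3.84% of all genes called, 2.05% higher).

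Among 8 genes of ligand shedding, 3 rose in β-Mfn1/2DKO islets. *Rhbdf1* (0.84 ± 0.21, adjusted p = 0.00818) and *Rhbdf2* (0.99 ± 0.26, adjusted p = 0.0101) encode inactive rhomboids that carry the sheddase ADAM17 to the cell surface, and *Timp3* (0.63 ± 0.17, adjusted p = 0.0135) encodes an inhibitor of that protease. *Rhbdf1* stood at 328, 286, 278, 463 and 794 normalized counts in β-Mfn1/2DKO libraries and at 210.5 to 273 in Ctrl, and *Rhbdf2* at 276, 236, 230.02, 501 and 808. Both were highest in the 2 acinar-rich libraries, and without them none of the 3 passed, with *Rhbdf1* at 0.33, *Rhbdf2* at 0.29 and *Timp3* at 0.42 (log2). Of the proteases, *Adam9* differed by -0.23 ± 0.07 (adjusted p = 0.0353, fold under 1.5) and *Adam10* by -0.08 ± 0.05 (adjusted p = 0.388).

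Among 16 genes of ERK feedback and ERK targets, 4 rose. *Myc*, a transcription factor gene of growth, stood at 943, 819.6, 929, 1490.1 and 1671 normalized counts in β-Mfn1/2DKO libraries against 310 to 492 in Ctrl, with no overlap. It rose by 1.64 ± 0.22 (adjusted p = 1.24e-05) and by 1.28 without the 2 acinar-rich libraries. *Fosl1* (0.89 ± 0.29, adjusted p = 0.0399), *Ier3* (0.65 ± 0.22, adjusted p = 0.0432) and *Spry1* (0.65 ± 0.20, adjusted p = 0.0313) were close to the threshold and were lost without those libraries. *Fosl1* is uncertain, as exons of *Ccdc85b* on the opposite strand overlap it with a mean of 1894 raw counts against 56.2. *Ccnd1*, the most abundant of these genes, differed by -0.40 ± 0.08 (adjusted p = 0.00126, fold under 1.5) and *Dusp5* by -0.14 ± 0.09 (adjusted p = 0.342).

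In the signalling chain, 1 of 11 adaptors, 1 of 11 RAS-ERK genes and 1 of 10 PI3K-AKT and STAT genes rose, each without overlap with Ctrl. *Gab2*, a docking protein gene, stood at 1379 to 1508 normalized counts in β-Mfn1/2DKO against 754 to 1099 in Ctrl libraries (0.64 ± 0.07, adjusted p = 2.88e-06). *Akt2*, a kinase gene of insulin signalling, stood at 9390.3 to 11202 against 6014 to 7689 (0.64 ± 0.07, adjusted p = 1.32e-06). *Ksr1*, a scaffold gene of the ERK cascade, stood at 119 to 158 against 69.8 to 99.6 (0.70 ± 0.16, adjusted p = 0.00404). These 3 and *Myc* passed with each library left out in turn, without the 2 acinar-rich libraries and with the acinar score as a covariate. Among the most abundant others were *Shc1* (0.06 ± 0.10, adjusted p = 0.751), *Araf* (-0.06 ± 0.05, adjusted p = 0.571), *Mapk3* (0.03 ± 0.07, adjusted p = 0.821) and *Stat3* (-0.05 ± 0.07, adjusted p = 0.669). *Ptpn11* (-0.32 ± 0.06, adjusted p = 0.000807) and *Akt1* (0.24 ± 0.05, adjusted p = 0.00161) had folds under 1.5.

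**Figure D5:**
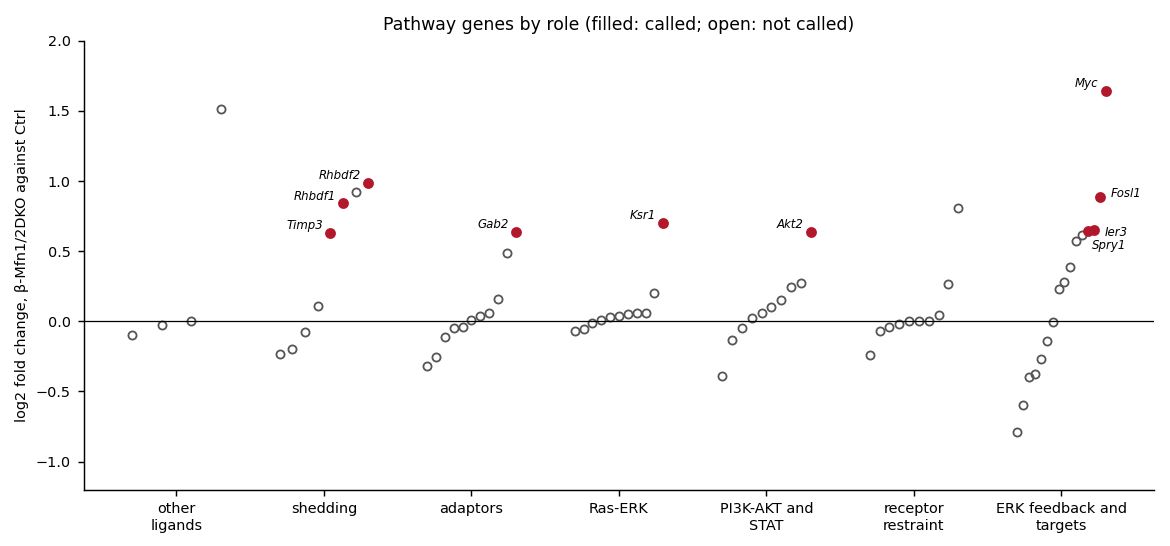
Log2 fold change in β-Mfn1/2DKO against Ctrl islets of 70 pathway genes by role, with filled points for the 10 called genes and open points for the others, and without *Epgn*, which is at 0 counts in Ctrl. *Myc* stands highest of the called genes at 1.64, and the RAS-ERK genes other than *Ksr1* lie close to 0.

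None of 10 genes that restrain the receptors was called by edgeR or DESeq2. An unadjusted p under 0.05 was seen for 2, *Socs5* (-0.24 ± 0.05, adjusted p = 0.00182) and *Lrig1* (0.27 ± 0.09, adjusted p = 0.0329), both with folds under 1.5, and the most abundant genes stood near 0, with *Erbin* at 0.00 ± 0.05 (adjusted p = 1) and *Rnf41* at -0.02 ± 0.06 (adjusted p = 0.888). Of the 5 other ligands 0 passed with either tool, and 0 had an unadjusted p under 0.05. The share of all genes under the unadjusted p is not given for this comparison, so nothing is read from these counts. The neuregulin genes were scarce, with *Nrg1* at a mean of 31.2 normalized counts in Ctrl and 28.9 in β-Mfn1/2DKO islets and *Nrg4* at 30.2 and 30.3, the second overlapped by exons of *Fbxo22* on the opposite strand.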

How the data were processed

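The authors trimmed paired-end reads with cutadapt 2.3, checked them with FastQC 0.11.8, aligned them to GRCm38 with STAR 2.6.1b and estimated gene counts with RSEM 1.3.1, per the methods and the submitters' processing notes. The deposited count table holds whole-number counts without normalization. The authors' depth-normalized signal, made with DESeq2 1.26.0, was deposited too and served only for ratios of group means. All columns were used (0 left out). Genes were named and measured by length from GENCODE mouse release M21 (71 IDs had no symbol), and *Hbegf* is given without coordinates.

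The quasi-likelihood test of edgeR 4.0.16 (R 4.3.3, TMM scaling, estimateDisp, glmQLFit and glmQLFTest) was run on all 28632 genes in 1 fit over 20 libraries with 1 coefficient per group, or with group and sex as terms for the comparison of sexes. The p-values were adjusted after Benjamini and Hochberg across the whole table, and calls needed an adjusted p under 0.05 with a change of more than 1.5-fold. SEs were taken from F (size of the log2 fold change over its square root), and 95% intervals are normal. The script was tested on simulated data. Each comparison rests on libraries of separate labels, and where these are not separate mice the p-values measure technical spread. Libraries with identical values were looked for, and 0 pairs were found. Depth was 12400687 to 122947313 counts per library.

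Members and lists were chosen with earlier results of these data known. The text names all members. In each pathway role it names called genes (at most 6 a direction by size in β-Mfn1/2DKO against Ctrl) and up to 2 others of highest mean, and the 6 genes most like *Areg* by each measure. Alternatives were DESeq2 1.42.0, DESeq2 size factors or total counts for scaling, filterByExpr, replicate block, sex or acinar score as covariates, only the groups compared, equal depth (seed 20), libraries above 40 M counts, no acinar-rich libraries, and leaving out each library. Tables and figures used Python 3.11.15, NumPy 2.4.6, pandas 2.3.3 and Matplotlib 3.10.9.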

Additional observations from a re-analysis of the deposited data

Results flagged for a closer look

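Of 40 sets of 1 member in 1 group, 5 held a library that stood apart from the rest of its group by Dixon's ratio, where chance alone gives about 1 in 20. The normalized count of *Areg* was 2121 in β-Mfn2KO replicate 3, against 56.4 to 177 in the other 4 libraries. The remaining 4 were in Ctrl. *Ereg* was 11.6 in replicate 1, against 2.12 to 3.51 in the other 5. These are 4 raw counts against 1 in each of the others, and at such counts the rate of 1 in 20 does not apply. *Btc* was 56.0 in replicate 6, against 24.6 to 33.8, and *Tgfa* was 233 in the same library, against 326 to 350. *Erbb3* was 512 in replicate 2, against 326 to 344. Ctrl replicate 6 also had the highest macrophage (4.81) and mesenchymal (3.02) scores of Ctrl, against at most 2.67 and 0.876 in the rest. The cause was not tested for any of these 5 sets.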

How the results depend on the processing

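Of 1480 recomputed fold changes of members, 1461 kept their side of the threshold or moved by less than the replicate spread. This measure is coarse, since a tested member that stayed uncalled counted as kept whatever its size. *Areg* in β-Mfn2KO islets counted as kept from 1.47 to 3.71 (log2) when each library in turn was left out. Some of the fits left out a library of a group that was not compared. The sign differed from the reported one in 97 of the 1480, of which 8 were of differences reported as over 1.5-fold. Without the 2 acinar-rich β-Mfn1/2DKO libraries, *Ereg* and *Erbb2* turned to -0.012 and -0.26 against Ctrl and to -0.22 and -0.27 against β-Mfn2KO, and *Erbb4*, which has too few counts for a fold, turned to 0.59 against β-Mfn2KO among libraries above 40 M counts. The other 3 were differences by sex, of *Erbb2* with the replicate block (-0.74) and of *Areg* (-0.58) and *Ereg* (-0.71) in Ctrl alone. Leaving out those 2 libraries brought the genes called between β-Mfn1/2DKO and Ctrl from 1491 to 956, the pathway genes called from 10 to 4, and those called against β-Mfn2KO from 2 to 1. The acinar score as a covariate gave 4 and 1. Pathway calls against β-Mfn2KO were 7 with total-count scaling and 0 among libraries above 40 M counts. All genes called in β-Mfn1KO islets were 7, or 3 with only the groups compared. Genes called by sex were 16, or 46 with DESeq2, 8 with the replicate block and 8 in Ctrl alone. Both sexes occur only among libraries numbered 3, so every sex difference with the replicate block rests on those libraries. Members called stayed at 0 in the 3 comparisons tested, under every alternative. A missing adjusted p, as for *Areg* in β-Mfn2KO islets with DESeq2, counted as not called.

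With each library left out in turn, genes called ranged from 3 (without Ctrl replicate 5) to 21 (without Ctrl replicate 1) in β-Mfn1KO, 12 to 16 in β-Mfn2KO, 1161 to 1632 in β-Mfn1/2DKO against Ctrl, 877 to 1164 against β-Mfn2KO, and 11 to 67 by sex (67 without β-Mfn1/2DKO replicate 3). Pathway calls ranged from 5 (without β-Mfn1/2DKO replicate 5) to 12 against Ctrl and from 1 to 5 against β-Mfn2KO. *Areg* against Ctrl ranged from 5.80 to 6.17, and over the other alternatives from 5.93 to 6.30.

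Replicate numbers were not taken to pair the libraries, since not every same-numbered pair correlated above 0.1 in its deviations from the group means. Of 27 such pairs 16 did (mean 0.12, lowest -0.12), against 27 of 122 pairs with different numbers (mean -0.03), and 9 of 20 libraries correlated best with their own number. That rule does not exclude a pairing. Both sexes occur only among libraries numbered 3, so pairing, batch and sex cannot be told apart in these correlations. With the replicate block *Areg* stood at 6.30 against Ctrl and 9 of the 10 pathway calls remained (*Ier3* was lost). Depth limits *Ereg* and *Erbb4*, and every β-Mfn1/2DKO library is deeper than every Ctrl library.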
